A study of Mus musculus with 6 samples.

Results

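The 10 genes described here belong to the amino acid response that runs through the transcription factor ATF4. They are Atf4 itself, the regulators Ddit3, Trib3, Chac1 and Sesn2, and the enzymes Asns, Psat1, Phgdh, Shmt2 and Mthfd2. They were taken by symbol, after Ensembl gene identifiers had been matched to mouse symbols in the mm10 build. The rule used no measured value, but the genes were chosen with earlier results of these data known. All 10 were found among the 52636 genes of the count table, and all 10 were among the 12284 genes with enough counts to be tested. Expression had been measured by RNAseq of the 3′ ends of polyadenylated transcripts in 3 libraries of J110 cells and 3 libraries of SSM3 cells, described as biological replicates. J110 is a mammary tumour cell line from transgenic mice that express AIB1 cDNA from the MMTV LTR, a promoter active in mammary epithelium. SSM3 is a line from mammary tumours of 129SvEv mice. Each group is therefore a single established line, and the p-values below measure the spread between replicates of that line only. No amino acid deprivation or drug is described for these cultures, so the comparison is between the lines in their usual growth media. The SSM3 medium held more serum than the J110 medium, together with added L-glutamine, β-mercaptoethanol and holo-transferrin, and the cells were kept at a higher level of CO2. The genes respond to nutrients, and effects of the line and of its medium on them cannot be told apart. The transgene did not identify the J110 libraries, since Ncoa3, which encodes AIB1, was at a mean of 21.2 CPM in J110 and 39.9 CPM in SSM3. Counts from 3′ ends need not detect a cDNA transgene, so J110 and SSM3 are used below as the libraries were labelled. By flow cytometry, the paper describes SSM3 cells as luminal and positive for EpCAM, and J110 cells as basal in appearance. It also describes Cdh1 as increased in SSM3. Mean Epcam was 0.681 CPM in the libraries labelled J110 and 507 CPM in those labelled SSM3. Mean Cdh1 was 4.02 CPM in J110 and 1374 CPM in SSM3. Epcam and Cdh1 thus differed in the direction that the labels give.

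When amino acids run short, uncharged tRNAs activate the kinase GCN2, which phosphorylates the translation factor eIF2. General protein synthesis then slows, while translation of the Atf4 mRNA rises, and the ATF4 protein switches on genes for amino acid synthesis, transport and tRNA charging. Because ATF4 is controlled largely at translation, the level of its mRNA is not a measure of ATF4 protein. Serine made by PHGDH, PSAT1 and PSPH feeds the mitochondrial enzymes SHMT2 and MTHFD2, which pass its carbon into the folate pool used to make nucleotides. In mammary epithelium and its tumours, this serine and folate route is known for supplying dividing cells.

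ATF4 commonly binds DNA together with a C/EBP factor at composite elements, and the core of that element, TGATGNAA, was searched for on both strands of RefSeq promoters of GRCm38.p6, from 250 bases before to 50 bases after each start. All 10 genes had a promoter in that set. The core was found in 3 of their 11 promoters, in 3 different genes, compared with 3.97% of 32851 promoters of the same length. The genes had been chosen as ATF4 targets or serine and one-carbon enzymes, and the difference in share was not tested. The 3 windows are shown because they hold the only matches among the genes, each as 30 bases read along the gene, with the match in capitals.
Asns (chr6:7693214-7693243, reverse strand gene): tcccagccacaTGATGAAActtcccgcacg
Chac1 (chr2:119351038-119351067, forward strand gene): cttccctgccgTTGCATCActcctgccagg
Trib3 (chr2:152344028-152344057, reverse strand gene): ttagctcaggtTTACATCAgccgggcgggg
The Asns match began 23 bases upstream of the RefSeq start, which is base 23 of the gene in the GENCODE annotation, and ran in the direction of the gene, whereas those of Chac1 and Trib3 lay on the opposite strand. That of Chac1 began 193 bases upstream of its RefSeq start and 180 bases upstream of its GENCODE start, and that of Trib3 began at base 15 after its RefSeq start, which is 14 bases upstream of the start in the GENCODE annotation. The cyclic AMP response element TGACGTCA was found in none of the 10 genes' promoters, against 1.79% of all promoters. A match is a description of the letters in these windows only, and binding was not measured.

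Of the 10 genes, 4 were higher in SSM3 cells (Atf4, Trib3, Phgdh and Asns), 5 were lower (Sesn2, Chac1, Psat1, Ddit3 and Mthfd2) and Shmt2 did not pass the threshold of 0.05 on the adjusted p of edgeR's quasi-likelihood test. Over all genes tested, 77.9% passed the same threshold, 38.6% higher and 39.2% lower in SSM3, so that 9 of 10 was close to what held for genes in general. The libraries of the lines did not overlap in 9 of the 10 genes, compared with 79.6% of all genes tested. The median log2 fold change (SSM3 against J110) of the 10 genes was -0.26, beside -0.014 for all genes tested. It was -0.082 with scaling by library size only and 0.074 with at least 10 counts required in every library, which left out Chac1. The median size of the change in either direction was 0.75, beside 0.84 for all genes tested. The estimated changes of Atf4, Sesn2, Chac1 and Psat1 were 2-fold or more. The 95% intervals of Atf4 (0.91 to 1.27) and Chac1 (-2.33 to -0.95) also took in changes below 2-fold. The set held changes of both signs. Levels are given below as CPM, the count of a gene divided by its library's TMM-adjusted total and put on a common scale. Since the libraries came from bulk RNA, more RNA per cell and more cells carrying that RNA cannot be told apart.

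**Figure D1:**
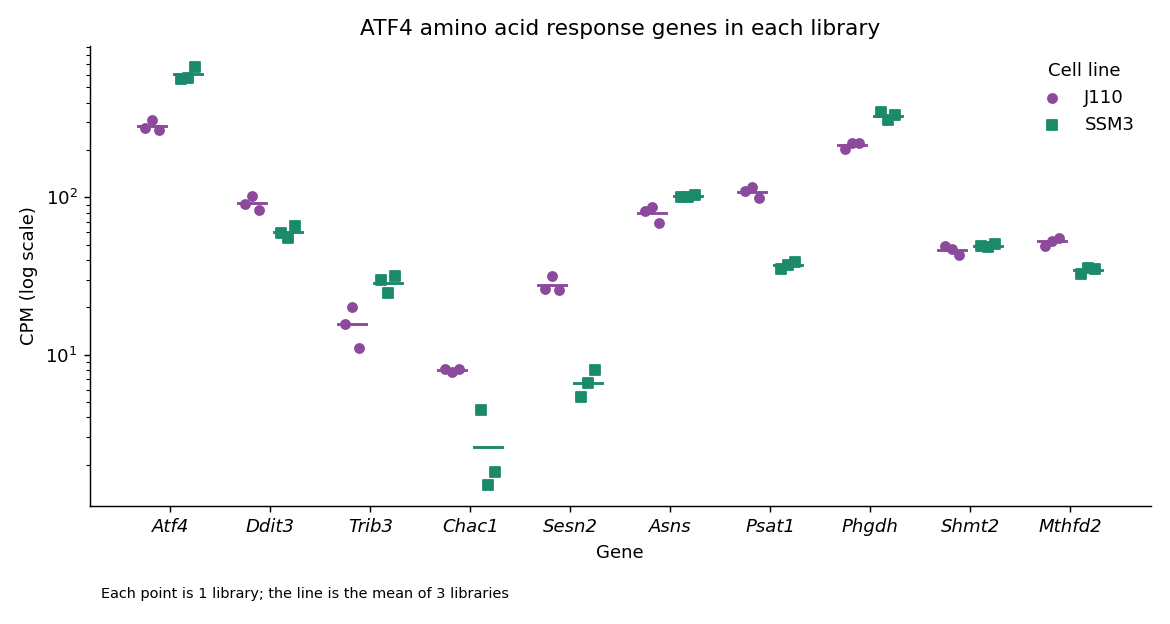
CPM of each of the 10 genes (logarithmic vertical axis) in the 3 J110 libraries (circles) and the 3 SSM3 libraries (squares), with a line at the mean of each group. The groups are apart for 9 genes and overlap for Shmt2, and the SSM3 points lie above the J110 points for Atf4, Trib3, Asns and Phgdh and below them for Ddit3, Chac1, Sesn2, Psat1 and Mthfd2.

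Atf4 (ENSMUSG00000042406, chr15:80255184-80257541, forward strand) encodes the transcription factor at the centre of the response. It was at 276, 312 and 266 CPM in the J110 libraries and at 565, 574 and 675 CPM in the SSM3 libraries. Every SSM3 library was above every J110 library, with SSM3 replicate 3 the highest. Means (± SD, n = 3 per line here and below) were 285 ± 24.0 CPM for J110 and 605 ± 61.2 CPM for SSM3, which gave a log2 fold change of 1.09 (SE 0.084, 95% interval 0.91 to 1.27, adjusted p = 4.88e-09). SSM3 cells thus held 2.12 times the Atf4 transcript level of J110 cells.

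Ddit3 (ENSMUSG00000025408, chr10:127290774-127296288, forward strand) encodes CHOP, a C/EBP family factor that is induced through ATF4 under stress and is linked to cell death. Its levels were 90.6, 102 and 83.7 CPM in J110 and 59.2, 54.8 and 65.5 CPM in SSM3. The lowest J110 library was above the highest SSM3 library, so the order of the lines was the reverse of that for Atf4. Ddit3 fell from 92.2 ± 9.39 to 59.8 ± 5.36 CPM, or by a log2 fold change of -0.62 (SE 0.10, adjusted p = 2.68e-05). The 3′ end of Ddit3 shares 68 bases with the end of Mars, which encodes a tRNA synthetase and lies on the opposite strand, and the strand setting used in counting was not given in the sources used here. Counts of Mars were 139% to 211% of those of Ddit3, so the values of Ddit3 are uncertain.

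Trib3 (ENSMUSG00000032715, chr2:152337422-152344032, reverse strand) encodes a pseudokinase that is a target of ATF4 and CHOP and restrains ATF4 activity. It had 81, 101 and 53 counts in the J110 libraries and 133, 116 and 160 counts in those of SSM3. The groups did not overlap, although J110 replicates 2 and 3 differed from each other more than any pair of SSM3 libraries. Trib3 was 1.85 times as high in SSM3, with means of 15.6 ± 4.46 and 28.7 ± 3.69 CPM and a log2 fold change of 0.88 (SE 0.18, adjusted p = 0.000342). Like Atf4, it was therefore higher in SSM3, while Ddit3 was lower.

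Chac1 (ENSMUSG00000027313, chr2:119351229-119354381, forward strand) encodes an enzyme that breaks down glutathione and is a target of ATF4. It had the fewest counts of the set, with 42, 39 and 39 in J110 and 20, 7 and 9 in SSM3. All SSM3 libraries were below all J110 libraries, and SSM3 replicate 1 stood well above the other SSM3 libraries. The mean fell from 7.98 ± 0.234 to 2.58 ± 1.63 CPM, or by a log2 fold change of -1.64 (SE 0.32, 95% interval -2.33 to -0.95, adjusted p = 0.000217). Without SSM3 replicate 1 the log2 fold change was -2.26, so the direction rested on no single library but the size was poorly fixed at these counts.

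Sesn2 (ENSMUSG00000028893, chr4:132492032-132510501, reverse strand) encodes Sestrin 2, a leucine sensor that restrains mTORC1 and is induced through ATF4. It had the largest fold change of the 10 genes with all libraries in the fit, although without SSM3 replicate 1 that of Chac1 was larger. Its levels were 26.0, 31.8 and 25.9 CPM in J110 but 5.34, 6.58 and 7.96 CPM in SSM3. The lowest J110 library was several times above the highest SSM3 library. Sesn2 was 4.21 times as high in J110, with means of 27.9 ± 3.40 and 6.63 ± 1.31 CPM and a log2 fold change of -2.06 (SE 0.18, 95% interval -2.44 to -1.68, adjusted p = 2.02e-08).

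Asns (ENSMUSG00000029752, chr6:7675169-7693254, reverse strand) encodes asparagine synthetase, the classic target of the amino acid response. It was at 81.7, 86.8 and 68.9 CPM in J110 and at 101, 100.4 and 104 CPM in SSM3. The SSM3 libraries were nearly identical and all above J110, in which replicate 3 was the lowest. The log2 fold change of 0.36 (SE 0.094, 95% interval 0.16 to 0.56, adjusted p = 0.00222) was the smallest of those that passed, with means of 79.1 ± 9.26 and 102 ± 1.87 CPM. Asns was thus 1.29 times as high in SSM3, a smaller step than that of Atf4.

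**Figure D2:**
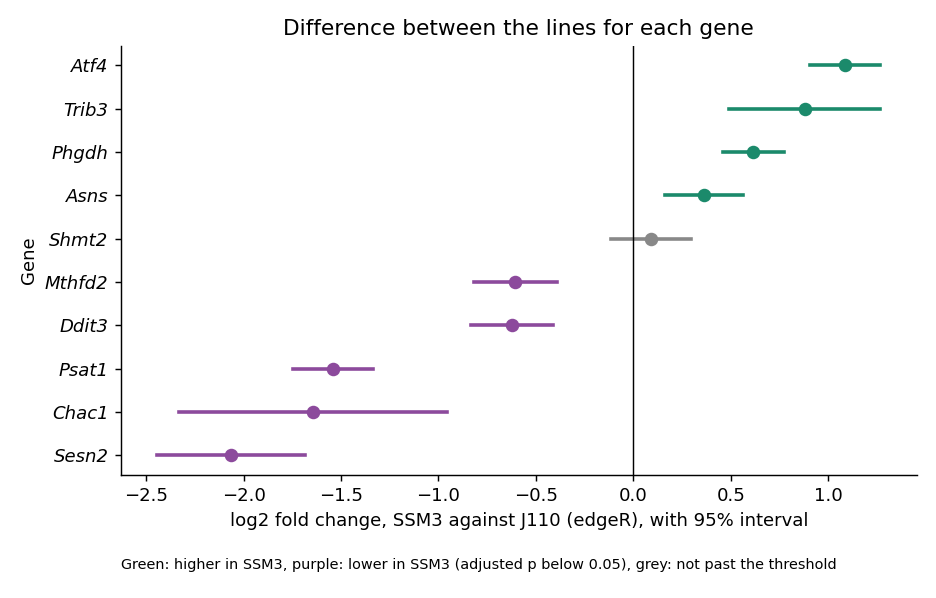
Log2 fold change of each gene, SSM3 against J110, from edgeR (horizontal axis), with its 95% interval as a bar; the vertical line marks no difference. The intervals of Atf4, Trib3, Phgdh and Asns lie to the right of the line and those of Mthfd2, Ddit3, Psat1, Chac1 and Sesn2 to the left, and that of Shmt2 crosses it.

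The enzymes of serine synthesis did not change together. Phgdh (ENSMUSG00000053398, chr3:98313170-98339990, reverse strand) encodes the dehydrogenase that takes the first step from the glycolytic intermediate. Phgdh was at 204, 223 and 221 CPM in J110 and at 349, 310.3 and 334 CPM in SSM3. All SSM3 libraries were higher, by a log2 fold change of 0.62 (SE 0.074, adjusted p = 1.05e-06), with means of 216 ± 10.4 and 331 ± 19.6 CPM. The last 500 bases of Phgdh transcripts resembled 22 other genes at 90% identity or more. The 18 of them in the count table held only 2 to 7 counts per library in all, but the handling of reads that map to several places was not stated. Psat1 and Shmt2 each resembled 1 other gene, which had no counts.

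Psat1 (ENSMUSG00000024640, chr19:15904678-15947337, reverse strand) encodes the aminotransferase of the next step. It was at 110.1, 116 and 98.5 CPM in J110 and at 35.2, 37.4 and 39.0 CPM in SSM3. The groups were far apart, in the opposite direction to Phgdh. Psat1 was 2.91 times as high in J110, with means of 108 ± 9.12 and 37.2 ± 1.92 CPM, a log2 fold change of -1.54 (SE 0.096, 95% interval -1.75 to -1.34) and the smallest adjusted p of the set (3.07e-10). Per 100 counts of Phgdh in the same library, there were 53.9, 52.3 and 44.5 counts of Psat1 in J110 and 10.1, 12.0 and 11.7 in SSM3. This ratio, which does not depend on how libraries are scaled, was 4.46 times as high in J110.

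The mitochondrial folate enzymes also differed from each other. Shmt2 (ENSMUSG00000025403, chr10:127517123-127522444, reverse strand) encodes the enzyme that splits serine into glycine and a folate-bound carbon unit. Its levels of 46.3 ± 2.91 CPM in J110 and 49.3 ± 1.25 CPM in SSM3 overlapped, with 254, 236 and 207 counts in J110 and 219, 228 and 255 in SSM3. The log2 fold change was 0.09 (95% interval -0.11 to 0.30, adjusted p = 0.398), so that a difference was not detectable, although one within that interval may exist. With scaling by library size only it was 0.27, with an adjusted p = 0.0232. Shmt2 shares 32 bases with Ndufa4l2 on the opposite strand, which held 3.81% to 11.1% as many counts.

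Mthfd2 (ENSMUSG00000005667, chr6:83305691-83325908, reverse strand) encodes the dehydrogenase and cyclohydrolase that follows SHMT2. It was at 49.4, 52.6 and 55.3 CPM in J110 and at 32.7, 35.7 and 34.8 CPM in SSM3. The groups did not overlap, and the spread within each was small beside the gap. Mthfd2 fell from 52.4 ± 2.98 to 34.4 ± 1.51 CPM, or by a log2 fold change of -0.61 (SE 0.10, adjusted p = 4.17e-05). There were 114 ± 13.7 counts of Mthfd2 per 100 counts of Shmt2 in J110 and 69.8 ± 3.44 in SSM3.

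Set against Atf4 in the same library, 8 of the other 9 genes were lower in every SSM3 library than in any J110 library, which also held for 71.6% of all genes tested. Since Atf4 itself was higher in SSM3, a gene whose CPM did not pass the threshold, such as Shmt2, was lower by this measure. Per 100 counts of Atf4, J110 held 38.1 ± 1.57 counts of Psat1 and SSM3 held 6.17 ± 0.371. For Ddit3 the values were 32.3 ± 0.795 and 9.91 ± 0.505, and for Sesn2 they were 9.78 ± 0.395 and 1.09 ± 0.126. Even Asns and Phgdh, which were higher in SSM3 in CPM, were lower relative to Atf4, at 27.8 ± 1.87 and 16.9 ± 1.34 for Asns and at 76.2 ± 6.18 and 55.1 ± 6.23 for Phgdh. Trib3 was the exception, with 5.66, 6.40 and 4.15 counts per 100 of Atf4 in the J110 libraries and 5.24, 4.29 and 4.72 in the SSM3 libraries, which overlapped. All of these ratios share the Atf4 counts, so they are not independent of each other and no test was applied. The proportions of the stress regulators differed as well, and there were 16.7 ± 3.20 counts of Trib3 per 100 of Ddit3 in J110 and 47.9 ± 2.61 in SSM3.

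**Figure D3:**
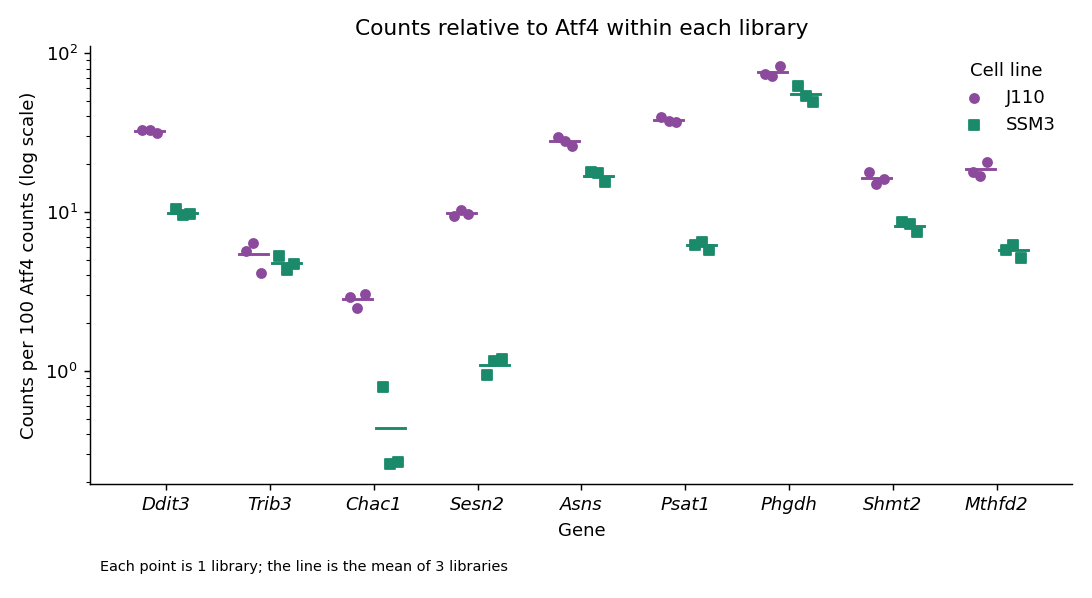
Counts of each of the other 9 genes per 100 counts of Atf4 in the same library (logarithmic vertical axis), for the J110 libraries (circles) and SSM3 libraries (squares), with a line at each mean. The SSM3 points lie below the J110 points for every gene except Trib3, where they overlap; the gap is wide for Sesn2, Psat1 and Chac1 and narrow for Phgdh.

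The same libraries were often the highest or lowest of their line. J110 replicate 2 was the highest J110 library for 7 of the 10 genes and J110 replicate 3 the lowest for 7. SSM3 replicate 3 was the highest SSM3 library for 7 genes and the lowest for none. Over all genes tested, each library was the highest or the lowest of its line for between 30.0% and 36.9% of genes. The 4 higher and 5 lower calls were nevertheless made again when any one library was left out.

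Other genes of the pathway, in 7 lists with 109 genes in all, also differed in both directions, with 34 higher in SSM3, 50 lower, 21 not past the threshold and 4 not tested (Fgf21, Cbs, Ass1 and Slc7a3). These counts, like those of each list below, stand beside the 38.6% of all genes tested that were higher and the 39.2% that were lower. With scaling by library size only, 39 pathway genes were higher and 38 lower, beside 5373 higher and 4140 lower among all genes tested. Upstream of ATF4, the list of eIF2 kinases, their regulators, the eIF2 subunit gene Eif2s1 and the subunits of eIF2B had 9 of 14 genes lower and 3 higher, with a median log2 fold change of -0.46. With scaling by library size only, 5 were lower and the median was -0.29. Without J110 replicate 2, or without SSM3 replicate 3, 6 were lower. Impact, an inhibitor of GCN2 signalling, was at 37.6 ± 2.63 CPM in J110 and at 0.626 ± 0.176 CPM in SSM3, where it had 2, 3 and 4 counts (log2 fold change -5.83, adjusted p = 1.51e-12). Eif2ak4, which encodes GCN2, had a log2 fold change of -0.84 (adjusted p = 0.000189), and Eif2ak1, which encodes the heme-regulated kinase HRI, one of 1.21 (adjusted p = 9.31e-10). Eif2ak3, which encodes PERK, had a log2 fold change of -0.95 (adjusted p = 0.0170), but the adjusted p was 0.0852 without J110 replicate 2 and 0.0689 without SSM3 replicate 3. The call of Eif2ak3 was also lost with scaling by library size only. Ppp1r15b, which encodes a subunit of the eIF2 phosphatase, was lower (-0.97), as was Eif2s1 (-0.63), while Eif2b4 was higher (0.91). Eif2ak1, Eif2ak3, Ppp1r15b and Eif2b4 share exons with another counted gene and are uncertain.

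Among other ATF4 factors and targets, 7 of 15 genes tested were higher in SSM3 and 6 were lower, with a median log2 fold change of -0.11, which was 0.061 with scaling by library size only, -0.064 without SSM3 replicate 2 and -0.065 without SSM3 replicate 3. With at least 10 counts required in every library, 2 were lower and the median was 0.74. Gdf15, which encodes a stress-induced hormone, had 130, 95 and 89 counts in J110 and 1, 0 and 0 in SSM3, at least 31.1-fold lower. Jdp2, a partner of AP-1 factors, was at least 49.9-fold lower in SSM3, and both bounds are against the 3 counts per library taken as the floor, which cover counting error only. In contrast, Stc2, which encodes a secreted glycoprotein induced by stress, rose from 2.54 ± 0.516 to 69.2 ± 4.78 CPM (log2 fold change 4.76, adjusted p = 1.49e-13). Trib1, a relative of Trib3, rose from 39.1 ± 0.743 to 308 ± 13.0 CPM (log2 fold change 2.97, adjusted p = 9.46e-15), and Trib2 also rose (1.07, adjusted p = 0.000111), so all 3 Tribbles genes were higher in SSM3. The mTORC1 inhibitor Ddit4 was higher in SSM3 (0.76, adjusted p = 9.30e-07), in the opposite direction to Sesn2. Sesn1, a relative of Sesn2, had a log2 fold change of 0.88 (adjusted p = 0.00798, and 0.0533 without J110 replicate 1), whereas Sesn3 had 46, 44 and 41 counts in J110 and 1, 1 and 3 in SSM3, at least 13.0-fold lower and in the same direction as Sesn2. The stress-induced factor Atf3 was higher (1.79, adjusted p = 1.88e-08), whereas Atf5 (-0.75, adjusted p = 8.40e-05) and Nupr1 (-0.69, adjusted p = 0.000416) were lower. Jdp2 and Atf5 share exons with another counted gene and are uncertain.

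**Figure D4:**
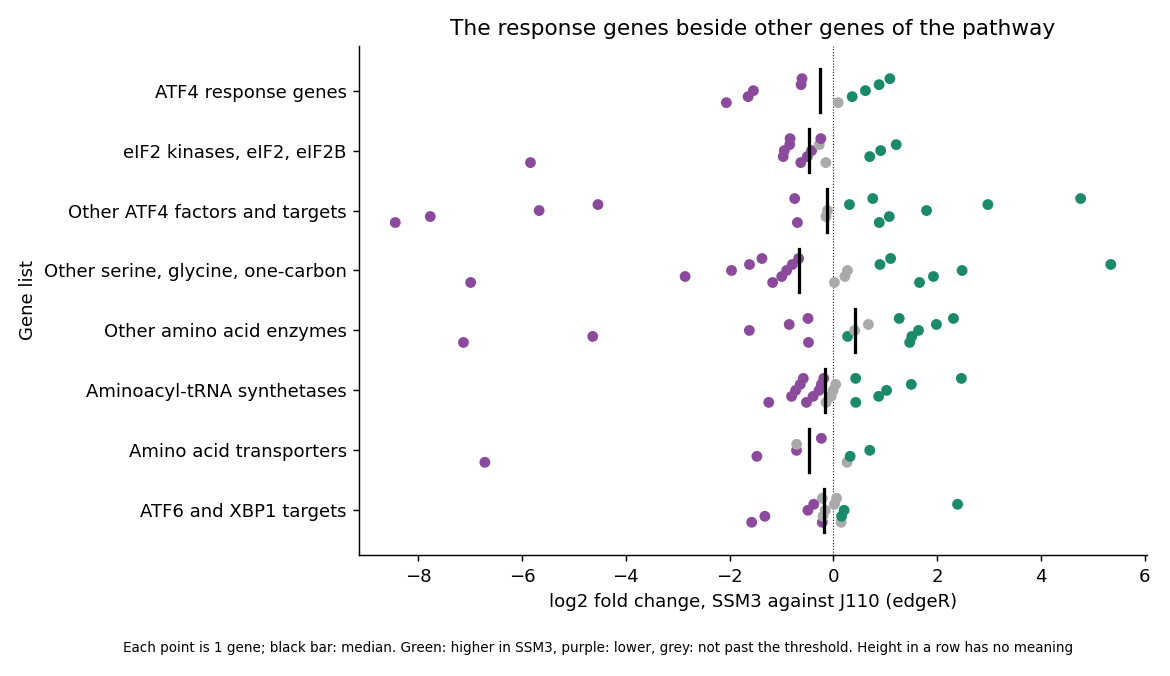
Log2 fold change, SSM3 against J110 (horizontal axis, edgeR), of the 10 genes and of the genes tested in 7 other lists of the pathway, 1 point per gene and a black bar at each median; fitted values of genes at the floor in SSM3 depend on the prior count. Every list holds genes on both sides of no difference, and the medians run from -0.67 for the other serine, glycine and one-carbon genes to 0.41 for the other amino acid enzymes.

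Around Psat1, Phgdh, Shmt2 and Mthfd2, the other serine, glycine and one-carbon genes had 10 of 19 lower in SSM3 and 6 higher, with a median log2 fold change of -0.67. Psph, which completes serine synthesis, was 3.90 times as high in J110, at 37.3 ± 3.06 and 9.56 ± 1.86 CPM (log2 fold change -1.96, adjusted p = 7.64e-09). Psph was thus lower in SSM3 together with Psat1, while Phgdh was higher. The cytosolic Shmt1 rose from 32.7 ± 4.40 to 125 ± 8.50 CPM (log2 fold change 1.93, adjusted p = 5.52e-11), whereas its mitochondrial relative Shmt2 was not detectably different. Next to Mthfd2, the cytosolic Mthfd1 (-0.79, adjusted p = 1.31e-06) and the mitochondrial Aldh1l2 (-2.86, adjusted p = 4.66e-06) were also lower, and Mthfd1l had a log2 fold change of 0.22 (adjusted p = 0.0864, and 0.0180 without SSM3 replicate 2). In contrast, Aldh1l1 had 0, 1 and 1 counts in J110 and 31, 35 and 25 in SSM3, at least 10.3-fold higher, and Mthfd2l had a log2 fold change of 0.02 (adjusted p = 0.904). Of the glycine cleavage system, Gldc was at least 31.6-fold lower in SSM3, with 1, 1 and 0 counts, and Gcsh was higher (1.66, adjusted p = 4.14e-10). Sfxn1, which carries serine into mitochondria, was the most abundant gene of this list and rose from 354 ± 7.32 to 658 ± 33.6 CPM (log2 fold change 0.90, adjusted p = 3.21e-09). Tyms, the thymidylate synthase that uses the folate carbon, was lower (-1.62, adjusted p = 2.17e-10). Psph, Shmt1, Mthfd1, Aldh1l1 and Aldh1l2 share exons with another counted gene and are uncertain.

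Beside Asns, the other enzymes of amino acid metabolism had 7 of 15 genes tested higher and 6 lower, with a median log2 fold change of 0.41. That median was 0.62 without J110 replicate 2, 0.27 without J110 replicate 3 and 0.95 among genes with at least 10 counts in every library, of which 3 were lower. Among the alanine and aspartate aminotransferases, Gpt2, Got2 and Got1 were higher in SSM3, with log2 fold changes of 2.31 (adjusted p = 3.97e-10), 1.51 (adjusted p = 1.04e-11) and 1.47 (adjusted p = 2.98e-11). Gpt had one of 0.67 (adjusted p = 0.0559, and 0.0351 without SSM3 replicate 3). Psat1, the aminotransferase among the 10 genes, was lower (-1.54, adjusted p = 3.07e-10). Of the enzymes that transfer the amino group of branched-chain amino acids, Bcat1 had 61, 79 and 61 counts in J110 and 1, 0 and 0 in SSM3 (adjusted p = 1.57e-09), and Bcat2 was higher (1.64, adjusted p = 7.48e-05). Glul, which makes glutamine from glutamate, rose from 57.4 ± 3.39 to 227 ± 3.90 CPM (log2 fold change 1.98, adjusted p = 1.28e-12). Glul, Got2, Bcat1 and Bcat2 share exons with another counted gene and are uncertain. Cth, which makes cysteine, was lower (-1.62, adjusted p = 0.000204). Asl, a urea cycle enzyme, had a log2 fold change of -0.49 (adjusted p = 0.0402), and its adjusted p was between 0.0648 and 0.177 without J110 replicate 1, J110 replicate 3, SSM3 replicate 2 or SSM3 replicate 3.

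The 20 cytosolic aminoacyl-tRNA synthetases, many of which are ATF4 targets, had 10 lower and 6 higher in SSM3, with a median log2 fold change of -0.16, or 0.010 with scaling by library size only. Farsa, a subunit of the phenylalanine enzyme, rose from 67.2 ± 5.23 to 371 ± 23.5 CPM (log2 fold change 2.46, adjusted p = 1.48e-13), and Vars, the valine enzyme, from 44.9 ± 5.70 to 127 ± 18.8 CPM (adjusted p = 5.55e-09). Cars (-1.25, adjusted p = 1.34e-08), Iars (-0.81, adjusted p = 1.84e-07) and the abundant Eprs (-0.52, adjusted p = 3.68e-06) were lower, with Cars sharing exons with another counted gene.

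Among amino acid transporters, 4 of 8 tested were lower and 2 higher, of which only 1 was higher without J110 replicate 1, J110 replicate 3 or SSM3 replicate 3. The median log2 fold change was -0.47, -0.30 with scaling by library size only and -0.25 with at least 10 counts in every library. Slc7a11, which imports cystine and is a target of ATF4, had 160, 184 and 140 counts in J110 and 2, 2 and 0 in SSM3, at least 48.1-fold lower. Its partner chain Slc3a2, which other transporters share, was higher (0.32, adjusted p = 0.00142). Slc38a2, a carrier of neutral amino acids, was 304 ± 38.0 CPM in J110 and 109 ± 9.43 CPM in SSM3 (log2 fold change -1.47, adjusted p = 6.30e-10).

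Targets of ATF6 and XBP1, the other branches of the endoplasmic reticulum stress response, had 3 of 14 genes higher and 5 lower, with 6 not past the threshold, a median log2 fold change of -0.18, and only 1 gene higher without J110 replicate 2. With scaling by library size only, 3 were lower and the median was -0.0054, and without SSM3 replicate 2 the median was -0.091. Hspa5, which encodes the chaperone BiP, was at 704 ± 29.8 CPM in J110 and at 784 ± 28.3 CPM in SSM3 (log2 fold change 0.16, adjusted p = 0.0407). Its adjusted p was between 0.0520 and 0.142 when any library other than SSM3 replicate 3 was left out, and the call was kept in 7 of 17 alternatives, those that lost it including upper quartile scaling, a count filter and the replicate block. The adjusted p of Calr (0.21, adjusted p = 0.0111) was 0.0584 without J110 replicate 2. Xbp1 rose from 63.2 ± 10.4 to 332 ± 13.4 CPM (log2 fold change 2.39, adjusted p = 1.81e-12). The chaperone gene Hsp90b1, which shares exons with another counted gene, fell by 1.32 on the log2 scale (adjusted p = 1.24e-09), and Creld2 fell by 1.57 (adjusted p = 5.04e-07).

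Total counts were 5209740 to 5416305 in J110 and 4200785 to 4792941 in SSM3, so that 3 counts correspond to 0.578 to 0.668 CPM. Genes of a ribosomal RNA locus took 15.1% to 17.2% of the counts in J110 and 0.779% to 1.27% in SSM3. The 9 epithelial markers checked summed to 3061 to 3199 CPM in J110 and 13561 to 14974 CPM in SSM3, with Cldn7 at the floor in J110. Krt19 made up 7412 CPM of the SSM3 mean, Epcam, Cldn3 and Cldn4 were at 0.681, 0.412 and 0.617 CPM in J110, and Krt18 was lower in SSM3 (1430.2 and 970.0 CPM). Of 6 leukocyte markers, 5 were at the floor in J110 and all 6 in SSM3, and the lists summed to at most 0.964 CPM. Of 5 endothelial markers, 3 were above the floor in J110, where the sum of 158 to 181 CPM was nearly all Cdh5, and none in SSM3, at most 0.425 CPM. Of 6 fibroblast markers, 4 including Col1a1 and Lum were at the floor in SSM3, where the sum of 1336 to 1480 CPM was nearly all Dcn, and 3 were at the floor in J110, where the sum was 1.54 to 4.38 CPM. These values moved with the line, and their part in the differences of the 10 genes was not tested.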

How the data were processed

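RNA from 3 biological replicates each of J110 and SSM3 cells was made into QuantSeq 3′ libraries. The authors demultiplexed, trimmed, mapped and counted the reads, and the submitters' processing notes list bcl2fastq 2.17.1.14, cutadapt 2.1, HISAT2 2.0.4, Subread 2.0.0 (featureCounts) and mm10. The deposited values are raw counts per Ensembl gene, not normalised. The strand setting and the handling of reads on several genes or places are not given in the sources used here, and no molecular identifiers were described. Reads were therefore counted, not molecules.

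All 6 libraries entered 1 fit, in which filterByExpr removed genes with low counts and TMM set the scale. The test was the two-sided quasi-likelihood test of edgeR 4.0.16 (R 4.3.3, limma 3.58.1), with Benjamini-Hochberg adjustment over all genes tested and a threshold of 0.05. The biological coefficient of variation was 8.30%, and pairs of replicates had a chi-square of 2.27 to 5.85 for each degree of freedom, so none was a copy of another. The script was tested on simulated data. A gene with at most 3 counts in each library of a line was at the floor. Shared exons were found with bedtools 2.31.1 and similar transcript ends with blastn 2.17.0, over at least 75 bases, using the GENCODE annotation of GRCm38. Promoter sequences came from RefSeq.

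The 10 genes and all lists were chosen with earlier results of these data known, and no list was tested. In each list, named genes are the 2 with the largest change in each direction among those past the threshold with a mean of at least 10 CPM over the 6 libraries, and the most abundant one. Relatives of the 10 genes and of other named genes (Eif2ak3, Eif2ak4, Atf3, Atf5, Nupr1, Sesn1, Sesn3, Trib2, Mthfd1, Mthfd1l, Mthfd2l, Aldh1l1, Aldh1l2, Tyms, Got1, Gpt, Bcat1, Bcat2 and Cth) were named after their values were seen. Some results of genes chosen by this rule are not reported here. Alternatives covered DESeq2 1.42.0, limma-voom, glmTreat, other scalings and filters, a replicate block and fits without single libraries.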

Additional observations from a re-analysis of the deposited data

How the results depend on the processing

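Of 169 values of the 10 genes under 17 alternatives, 162 kept their direction and their side of the threshold. In a test for a fold change above 2 (edgeR's glmTreat) Atf4, Ddit3, Trib3, Asns, Phgdh and Mthfd2 no longer passed, leaving 0 genes higher and 3 lower, and the pathway lists had 16 higher and 17 lower and all genes 4272 calls, against 9566. The adjusted p of Atf4 was 0.143 there. With scaling by library size only, the log2 fold changes of all genes had a median of 0.16 instead of -0.014, that of the 10 genes moved from -0.26 to -0.082, and Shmt2 passed as higher, while 5 instead of 9 upstream genes were lower. Requiring at least 10 counts in every library removed Chac1, and the median of the remaining genes was 0.074. Leaving out each library in turn gave 4 higher and 5 lower genes each time, medians of -0.27 to -0.22, 30 to 34 higher and 43 to 49 lower pathway genes, and 9275 to 9572 calls over all genes. Mthfd2l, at 0.02, turned to -0.013 with upper quartile factors, to -0.014 in the alternative named next, and ran from -0.061 to 0.10 without single libraries. An alternative chosen after seeing the data, without both J110 replicate 3 and SSM3 replicate 2, changed no call of the 10 genes.

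The replicate numbers did not pair the libraries, since same-numbered libraries had deviations correlated at 0.0118, 0.0155 and 0.0268. With the replicate block there were 4 genes higher and 5 lower, a median of -0.26 and 9481 calls over all genes. Depth limits Chac1 most, with 7 to 20 counts in SSM3 libraries, and 3 counts correspond to 0.578 to 0.668 CPM, depending on the library. Outlying libraries were not tested for, since each group held 3.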
